A study of Mus musculus with 39 samples.

Results

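Sqle, Lss, Cyp51, Tm7sf2, Msmo1, Nsdhl, Hsd17b7, Sc5d and Dhcr7 encode enzymes that turn squalene into cholesterol. These 9 genes were taken by name from the 55416 genes of a liver RNA-sequencing count table, each matched 1 row of it, and 9 of 9 passed the filter on low counts that left 15296 genes for testing. All 9 were lower in livers of mice on Western diet than in livers of mice on chow, when the diet difference was averaged over the genotypes. Of all genes tested, 6.77% were called lower in that comparison. Sqle differed most, at 7.07-fold lower, and Sc5d least, at 1.39-fold lower. Between Cd163 knockout and wildtype mice, 0 of 9 passed the test on either diet, where 0.00654% of all genes tested were called on each.

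The mice were males on the C57BL/6NTac background, either CD163 knockouts (allele CD163tm1(KOMP)Vlcg) or wildtype littermates from crosses of heterozygous parents. CD163 is a scavenger receptor of macrophages that takes up haemoglobin bound to haptoglobin, and the knockout is carried by every cell of the body. At 6 weeks of age the mice were allocated at random to a Western diet with fructose in the water, or to a maintenance chow (Altromin) with plain water, and kept on it for 8 weeks. There were 5 wildtype and 4 knockout mice on chow, and 15 wildtype and 15 knockout mice on Western diet, with 1 library of whole snap-frozen liver each, so p-values measure the spread between mice. Fructose water came with the Western diet only, so the food and the fructose cannot be told apart. Library totals ran from 8578865 to 30438808 counts (median 14573193). Levels are given as CPM, counts relative to the library total after scaling by TMM, and a library is named by its group and the letter in its label. Cd163 lay between 0.440 and 0.746 CPM in knockout and between 4.95 and 13.1 CPM in wildtype chow libraries (exact 2-sided permutation p = 0.0159). On Western diet it lay between 0 and 0.661 CPM in knockout and between 2.59 and 15.8 CPM in wildtype libraries (permutation p = 2e-05, the smallest that 100000 resamples can give), so no library went against its genotype label.

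Cholesterol is built in the endoplasmic reticulum, and the liver is a main site of this synthesis. The mevalonate pathway makes squalene, squalene is oxidised and closed into the ring system of lanosterol, and lanosterol is then trimmed of methyl groups, reduced and desaturated to give cholesterol. When membrane sterol is low, SCAP escorts the transcription factor SREBP2 (gene Srebf2) to the Golgi, where proteases release it to switch on the genes of the pathway. Sterol excess holds SCAP and SREBP2 back through INSIG proteins, and oxysterols activate the LXR receptors, which raise sterol export genes. SREBP2 acts at promoters together with the general factors NF-Y and Sp1.

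Because the 9 genes moved together, the bases before their start sites are shown first. RefSeq promoter windows (build GRCm38.p6) were found for 8 of 9 members, in 10 windows, and none was found for Sqle. The 120 bases before the start are printed below 5′ to 3′ on the gene's own strand. Capitals mark the NF-Y box, CCAAT or its reverse complement, and Dhcr7 is shown at the third of its 3 listed start sites.
Lss (chr10:76531485-76531604, plus strand): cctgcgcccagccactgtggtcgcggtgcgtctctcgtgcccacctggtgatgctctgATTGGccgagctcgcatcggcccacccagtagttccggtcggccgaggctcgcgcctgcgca
Cyp51 (chr5:4104698-4104817, minus strand): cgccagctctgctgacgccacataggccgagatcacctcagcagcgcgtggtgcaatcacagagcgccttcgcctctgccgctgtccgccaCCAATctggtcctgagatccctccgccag
Tm7sf2 (chr19:6067851-6067970, minus strand): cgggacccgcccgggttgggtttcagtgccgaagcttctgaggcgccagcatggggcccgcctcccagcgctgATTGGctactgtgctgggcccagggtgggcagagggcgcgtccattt
Msmo1 (chr8:64733579-64733698, minus strand): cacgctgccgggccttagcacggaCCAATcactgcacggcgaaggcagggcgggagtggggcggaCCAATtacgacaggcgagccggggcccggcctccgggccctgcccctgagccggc
Nsdhl (chrX:72918401-72918520, plus strand): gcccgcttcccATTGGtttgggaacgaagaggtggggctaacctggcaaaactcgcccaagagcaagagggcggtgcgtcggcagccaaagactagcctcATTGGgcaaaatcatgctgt
Hsd17b7 (chr1:169969206-169969325, minus strand): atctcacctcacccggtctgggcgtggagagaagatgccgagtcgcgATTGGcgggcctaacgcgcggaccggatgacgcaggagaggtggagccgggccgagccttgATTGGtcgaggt
Sc5d (chr9:42264301-42264420, minus strand): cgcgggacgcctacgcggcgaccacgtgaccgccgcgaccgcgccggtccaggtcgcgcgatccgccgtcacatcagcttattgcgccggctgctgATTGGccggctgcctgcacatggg
Dhcr7 (chr7:143830094-143830213, plus strand): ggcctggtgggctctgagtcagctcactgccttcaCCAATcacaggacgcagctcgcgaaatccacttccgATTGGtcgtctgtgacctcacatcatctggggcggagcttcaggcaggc
In the 250 bases before the start, searched on both strands, CCAAT was found in 8 of 10 windows, so that 8 of 8 members had it in at least 1 window. It was found in 33.8% of all 32851 windows of that length in the table. Msmo1 and Hsd17b7 had 3 such boxes each, and Nsdhl and Dhcr7 had 2. The Sp1 box GGGCGG was found in 9 of 10 windows, against 32.7% of all windows. The sterol regulatory element in the spelling TCACNCCAC was found in 0 of 10 windows, against 1.05% of all windows, which says only that these letters are not in these windows. No match of one of these strings overlapped a match of another, and a match is a description of letters, not a bound site.

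Before the member results, 4 libraries have to be set apart. Wildtype chow A, knockout chow D, wildtype Western diet A and knockout Western diet M resembled livers of the other diet. To place each library without the listed sterol genes, a scale was built from 511 genes outside the 9 members and the pathway lists. Genes outside these lists were kept even where they followed the members. These genes passed the diet test with a fold of 2 or more in the remaining 35 libraries, whose chow mean was set to 0 and whose Western diet mean was set to 1. Since genes and scale came from those 35 libraries, their diets had to come apart on it. Both odd chow livers had values near 1, with 0.916 for the wildtype and 0.988 for the knockout animal, and the 7 remaining chow livers spanned -0.0698 to 0.0909. Both odd Western diet livers had values near 0, with 0.223 for the wildtype and 0.143 for the knockout animal, and the 28 remaining ones spanned 0.797 to 1.25.

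**Figure D1:**
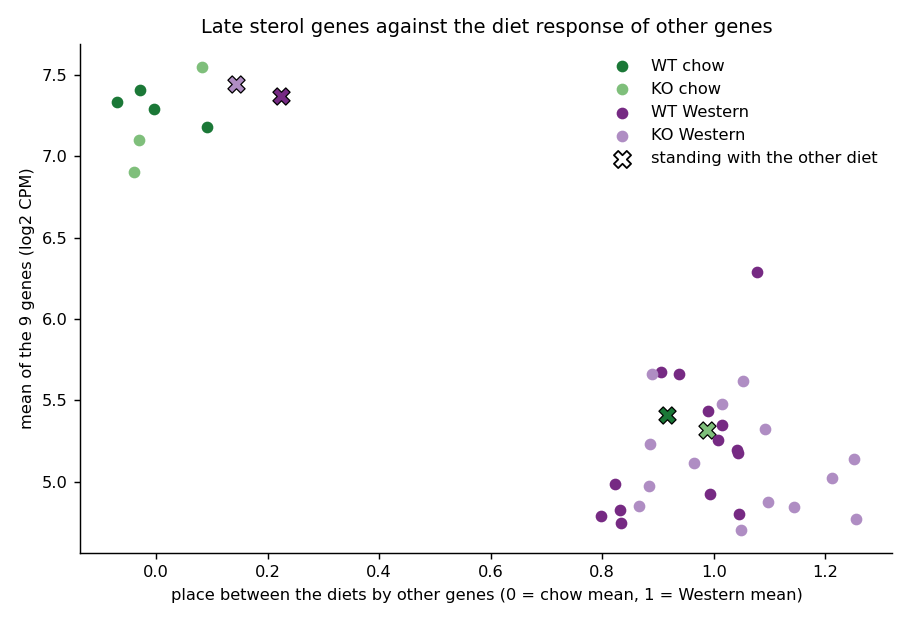
Each point is 1 of 39 liver libraries, placed by 511 diet genes outside the sterol lists (x axis, chow mean at 0 and Western diet mean at 1) and by the mean log2 CPM of the 9 members (y axis). The 2 odd chow libraries sit with the Western diet cloud at 0.916 and 0.988, and the 2 odd Western diet libraries sit near the chow cloud at 0.143 and 0.223.

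The members themselves placed the 4 libraries on the same sides. Averaged over the 9 genes, log2 CPM came to 5.41 and 5.32 in the odd wildtype and knockout chow livers, below the range of 6.90 to 7.55 in the 7 remaining ones. In the odd Western diet livers the average came to 7.37 (wildtype) and 7.45 (knockout), above the range of 4.70 to 6.29 in the 28 remaining ones. All 4 stayed under their labels in the values reported first, and the diet and genotype values of the 9 members are given again without them. Since they were set apart for standing on the wrong side of the diet difference, leaving them out has to widen that difference, and the second set of values is no separate evidence for it.

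The first comparison asks how Western diet changed the expression of these enzymes. With all 39 libraries, 9 of 9 members were lower on Western diet in the average over genotypes (edgeR quasi-likelihood test, Benjamini-Hochberg adjustment over 15296 genes, threshold 0.05), where 6.77% of all genes tested were called lower. The median log2 fold change of the members was -1.07, against -0.00186 for all genes tested. Without the 4 libraries 9 of 9 were again lower, against 13.9% of all genes, with a member median of -1.46. In bulk liver, fewer hepatocytes and less RNA per hepatocyte cannot be told apart. Of the hepatocyte markers, 6 of 6 had a negative log2 fold change in both fits (median -0.11, or -0.19 without the 4 libraries). With all libraries 1 of 6 was called lower, Serpina1a, a secreted protease inhibitor (log2 fold change -0.37). This became 3 of 6 without the 4 libraries, Serpina1a (-0.50), Ttr (-0.32) and Apoa1 (-0.27), while Alb, serum albumin, was at -0.06 (adjusted p = 0.786) and then at -0.11 (adjusted p = 0.616). The summed level of the hepatocyte list ran from 35946 to 72664 CPM in wildtype chow and from 44726 to 62326 CPM in knockout chow livers, against 39446 to 68621 CPM in wildtype and 37755 to 58797 CPM in knockout Western diet livers.

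**Figure D2:**
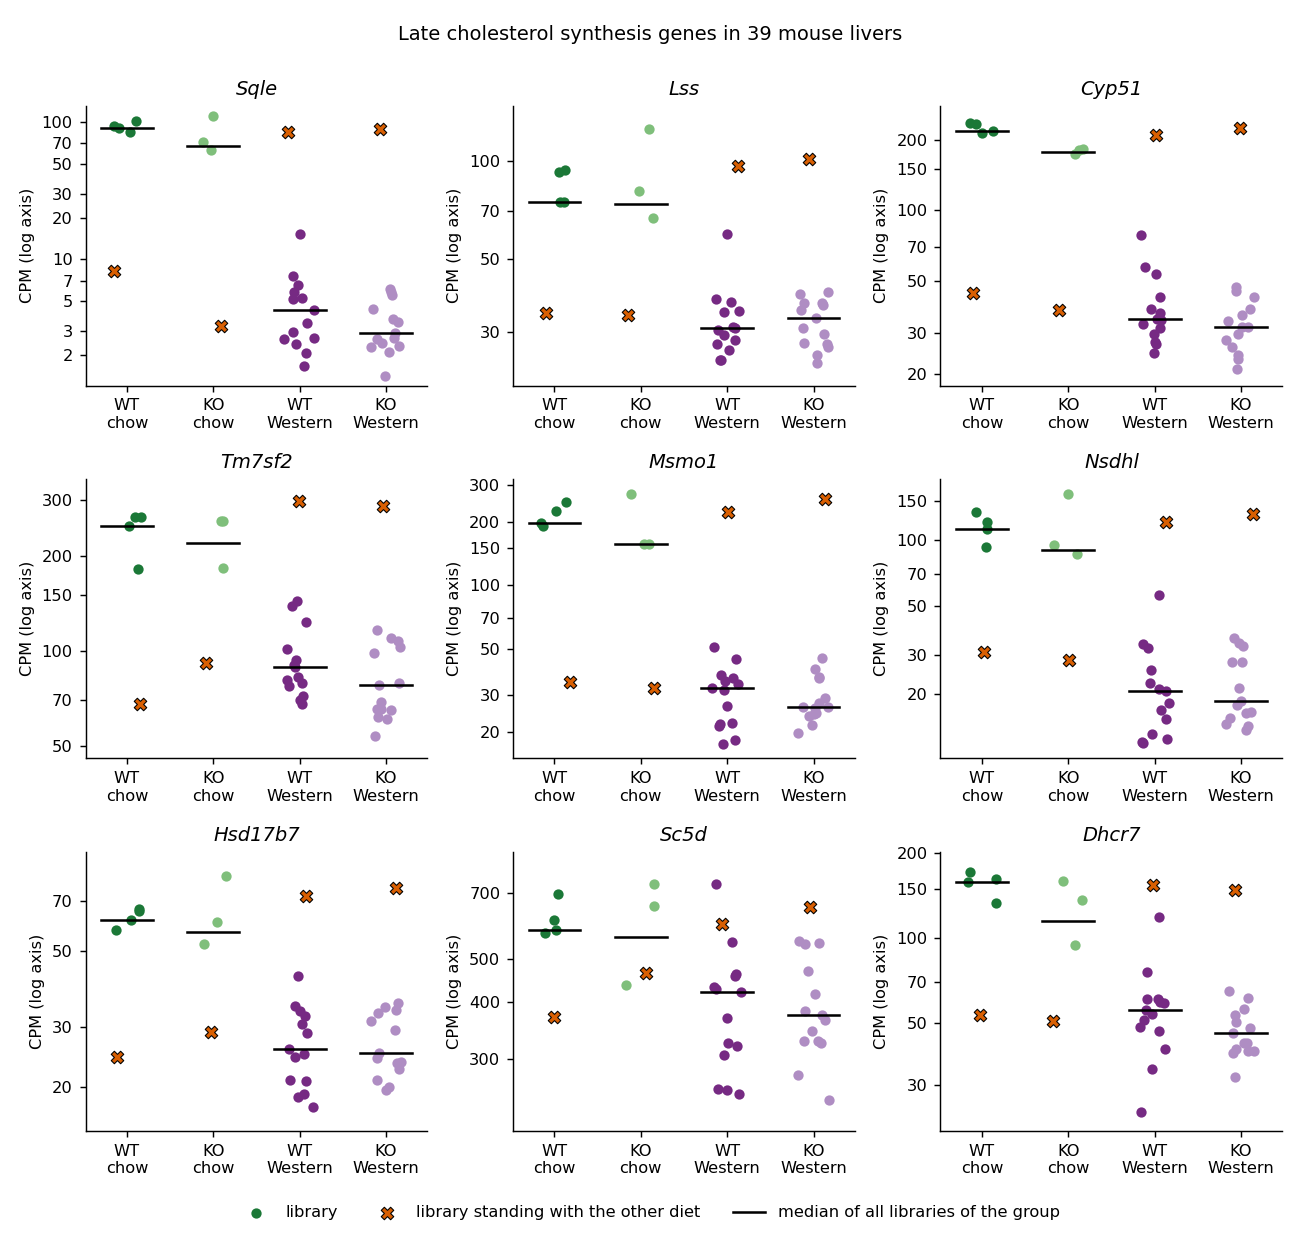
Each panel shows 1 member in CPM on a log axis, with 1 point per liver in the 4 groups and a bar at the group median. Orange crosses are the 4 odd libraries. Without those 4, the chow and Western diet points are apart in every panel except those of Sc5d and Dhcr7. Those 4 were set apart for standing on the wrong side of the diet difference, so leaving them out has to widen the gap. The share of all genes apart in this way was not counted.

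Sqle encodes squalene epoxidase, which adds the oxygen to squalene and is a rate-limiting enzyme of the late pathway. It was at 8.26, 90.4, 102, 84.2 and 94.3 CPM in wildtype chow livers A to E. In knockout chow livers A to D it was at 62.2, 112, 71.9 and 3.29 CPM. On Western diet it ran from 1.68 to 84.3 CPM (median 4.26) in wildtype and from 1.42 to 89.7 CPM (median 2.90) in knockout livers. The groups overlapped only through the 4 libraries, since without them the highest Western diet liver held 15.3 CPM and the lowest chow liver 62.2 CPM. Leaving out those 4 has to widen such a gap, and the share of all genes apart in this way was not counted. On the log2 scale the difference was -2.82 (SE 0.58, adjusted p = 0.00237), or -4.38 without the 4 libraries (SE 0.23, adjusted p = 1.25e-15), a level 20.9-fold lower. Among all genes tested Sqle had the third most negative fold change with all libraries and the most negative without the 4.

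Lss encodes lanosterol synthase, which folds the epoxide into the ring system. It ran from 34.1 to 93.5 CPM (median 75.0) in wildtype and from 33.8 to 125 CPM (median 73.9) in knockout chow livers. Its Western diet medians were 30.7 CPM in wildtype and 33.0 CPM in knockout livers. Lss was 2.05-fold lower under the diet (log2 fold change -1.03, SE 0.21, adjusted p = 0.00179), or 2.67-fold lower without the 4 libraries, where no Western diet liver reached a chow liver. As for Sqle, the share of all genes apart after leaving out those 4 was not counted.

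Cyp51, a cytochrome P450, removes the first methyl group from lanosterol, and Tm7sf2 is a reductase of the double bond that this step leaves. Cyp51 was at 44.3, 219, 236, 233 and 214 CPM in wildtype chow livers A to E and at 181, 183, 173 and 37.4 CPM in knockout chow livers A to D. On Western diet it ran from 24.7 to 210.3 CPM (median 34.3) in wildtype and from 21.01 to 224 CPM (median 31.8) in knockout livers. The low chow and high Western diet values were again those of the 4 libraries, and the highest Western diet level without them was 78.6 CPM. Cyp51 was 3.43-fold lower under the diet (log2 fold change -1.78, SE 0.33, adjusted p = 0.00126), or 5.55-fold lower without the 4 libraries. On chow, Tm7sf2 had medians of 248 CPM in wildtype and 220.0 CPM in knockout livers, and of 88.5 and 78.0 CPM on Western diet. It was 2.00-fold lower (log2 fold change -1.001, SE 0.23, adjusted p = 0.00541), and 2.69-fold lower without the 4 libraries.

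Msmo1, Nsdhl and Hsd17b7 act in turn to take off the remaining pair of methyl groups: Msmo1 oxidises them, Nsdhl removes the carbon as carbon dioxide, and Hsd17b7 reduces the ketone that is left. Msmo1 was at 34.5, 192, 225, 250.5 and 199 CPM in wildtype chow livers A to E and at 157, 273, 158 and 32.3 CPM in knockout chow livers A to D. On Western diet it ran from 17.6 to 222 CPM (median 32.5) in wildtype and from 19.8 to 258 CPM (median 26.4) in knockout livers. Without the 4 libraries its highest Western diet liver was at 51.0 CPM and its lowest chow liver at 157 CPM, so the diets did not overlap. This gap too is one that leaving out the 4 has to widen, and the share of all genes with such a gap was not counted. Msmo1 was 3.80-fold lower (log2 fold change -1.93, SE 0.38, adjusted p = 0.00177) and 6.81-fold lower without the 4 libraries.

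Nsdhl was at 30.9, 121, 134, 113 and 93.3 CPM in wildtype chow livers A to E and at 86.4, 161, 94.7 and 28.5 CPM in knockout chow livers A to D. Its Western diet medians were 20.7 CPM in wildtype and 18.5 CPM in knockout livers, and it was 3.28-fold lower (log2 fold change -1.71, SE 0.34, adjusted p = 0.0018), or 5.12-fold lower without the 4 libraries. Hsd17b7 had a smaller fold change than these partners, a difference that was not tested. Its medians were 61.5 and 56.7 CPM in wildtype and knockout chow livers and 25.8 and 25.1 CPM on Western diet, 1.86-fold lower (log2 fold change -0.90, SE 0.20, adjusted p = 0.00357) and 2.37-fold lower without the 4 libraries. With the replicate letter as a block it no longer passed (adjusted p = 0.0760).

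Sc5d, a desaturase that puts a double bond into the sterol ring, and Dhcr7, the reductase that takes away the last such bond to give cholesterol, close the series. Sc5d was at 371, 696, 579, 569 and 608 CPM in wildtype chow livers A to E and at 655, 733, 437 and 464 CPM in knockout chow livers A to D. On Western diet it ran from 251 to 732 CPM (median 421.3) in wildtype and from 243 to 651 CPM (median 376) in knockout livers. The diets overlapped for Sc5d even without the 4 libraries, where 8 of 28 Western diet livers reached the lowest chow liver. Its fold change was the smallest of the 9 (log2 fold change -0.47, SE 0.15, adjusted p = 0.0297), a level 1.39-fold lower, and 1.53-fold lower without the 4 libraries. This call was lost with the replicate block (adjusted p = 0.270), with no filter on low counts (0.0900), with the library number as a covariate (0.0798), and without 1 of knockout chow A or B or wildtype chow B, C or D (0.0523 to 0.119). Dhcr7 had medians of 158 and 115 CPM in wildtype and knockout chow livers and of 55.5 and 46.0 CPM on Western diet. It was 2.104-fold lower (log2 fold change -1.07, SE 0.22, adjusted p = 0.00237) and 2.75-fold lower without the 4 libraries, where 1 of 28 Western diet livers, wildtype C at 118 CPM, reached the lowest chow liver at 94.3 CPM.

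**Figure D3:**
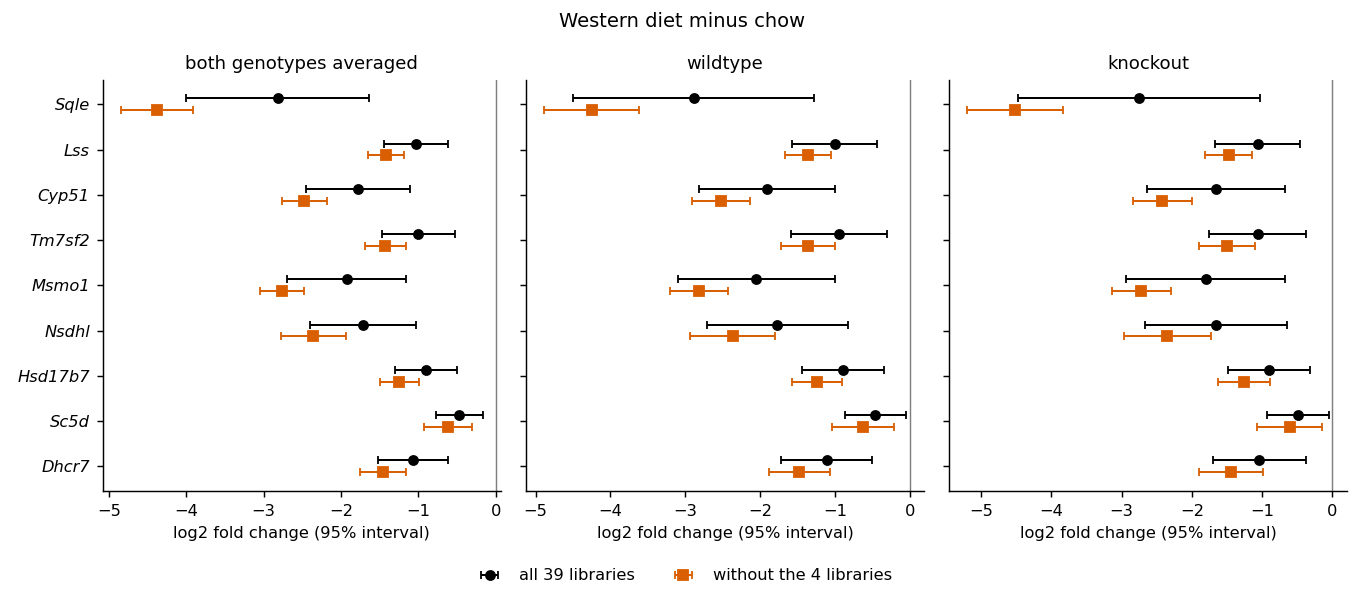
Log2 fold change of Western diet against chow for the 9 members in pathway order, with 95% intervals, in wildtype mice, in knockout mice and averaged, from all 39 libraries and without the 4. Every point lies below 0, with Sqle at -2.82 and Sc5d at -0.47 as the extremes of the averaged values from all libraries.

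By genotype, fewer members passed the test with all libraries. In wildtype mice 3 of 9 members were lower, where 0.615% of all genes were called lower: Cyp51 (log2 fold change -1.90, SE 0.45, adjusted p = 0.0317), Msmo1 (-2.05, SE 0.52, 0.0447) and Nsdhl (-1.77, SE 0.46, 0.0476). Leaving out 1 library gave 0 to 8 calls, 0 without wildtype chow B, C, D or E and 8 without wildtype chow A or Western diet A. The share of all genes called in those fits was not counted. The other 6 had adjusted p between 0.0532 and 0.234, with log2 fold changes between -2.89 for Sqle and -0.46 for Sc5d. In knockout mice 0 of 9 passed, where 0.00654% of all genes were called lower. An unadjusted p under 0.05 was found for 9 of 9, and for 2943 of all 15296 genes in either direction. DESeq2 called 2 of 9 lower there, with 0.683% of all genes. The knockout log2 fold changes lay between -2.75 for Sqle and -0.49 for Sc5d, with adjusted p between 0.114 and 0.226. Without the 4 libraries, 9 of 9 were lower in wildtype mice, against 4.4% of all genes, and 8 of 9 in knockout mice, against 7.5% of all genes. Sc5d was the member that did not pass in knockout mice (-0.61 on the log2 scale, SE 0.23, adjusted p = 0.0592), and in wildtype mice it passed at an adjusted p of 0.0488.

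The genes around these 9 enzymes gave the following picture in the averaged diet comparison, from lists of pathway genes described by counts only. Of the enzymes from acetyl-CoA to squalene, with the branch enzyme Ggps1 counted among them, 10 of 10 were lower. Their median log2 fold change was -1.30 (-1.83 without the 4 libraries). Of all genes tested, 6.77% were called lower, or 13.9% without the 4 libraries. Mvk, mevalonate kinase, was at -1.26 (SE 0.23, adjusted p = 0.00119). Fdft1, the synthase that makes squalene itself, was at -1.54 (adjusted p = 0.00212), and Ggps1, which leads from the pathway to geranylgeranyl groups, at -0.33 (adjusted p = 0.00222). Of 3 further enzymes of the stretch from lanosterol to cholesterol, Ebp, a sterol isomerase (-0.30, adjusted p = 0.00859), and Lbr, a nuclear envelope protein with sterol reductase activity (-0.29, adjusted p = 0.0231), were lower by less than any member. Both passed without the 4 libraries too (-0.42 and -0.35).

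Among 7 regulators, 2 were lower and 3 higher, where 7.84% of all genes tested were called higher (16% without the 4 libraries). Srebf2 was lower (-0.45, SE 0.10, adjusted p = 0.0046), and so was Insig1, itself a target of SREBP (-0.57, adjusted p = 0.0117). Srebf1, which encodes the SREBP of fatty acid synthesis, was higher (1.19, adjusted p = 0.00107), as was Insig2 (0.99, adjusted p = 0.00269); the third was Mbtps1, a protease that cuts SREBPs (0.28, adjusted p = 0.014), named after its value was seen. Of 3 uptake and transfer genes 2 were lower, among them Stard4, a sterol carrier (-0.57, adjusted p = 0.0112). Of 6 genes of sterol disposal 3 were higher, namely the sterol exporters Abcg5 (1.41, adjusted p = 0.00155), Abcg8 (1.19, adjusted p = 0.00292) and Abca1 (0.48, adjusted p = 0.0231). These calls held without the 4 libraries, where 3 more genes passed, named after their values were seen. Among the regulators this was Scap on the lower side (-0.22, adjusted p = 0.0312). Among the disposal genes Cyp7a1, the rate-limiting enzyme of bile acid synthesis, was lower (-0.94, adjusted p = 0.00922) and Mylip, a ubiquitin ligase, was higher (0.47, adjusted p = 0.00834).

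In wildtype mice alone, 2 of the 10 enzymes listed up to squalene passed with all libraries, Mvk (-1.39, adjusted p = 0.0291) and Fdft1 (-1.64, adjusted p = 0.0466). There 0.615% of all genes were called lower. Srebf2 (-0.54, adjusted p = 0.0466) and Srebf1 (1.38, adjusted p = 0.0198) passed in wildtype mice in opposite directions. Abcg5 (1.61, adjusted p = 0.0303) and Abcg8 (1.36, adjusted p = 0.0466) passed on the higher side, where 0.771% of all genes were called higher. In knockout mice 0 of the 10 enzymes passed, where 0.00654% of all genes were called lower, although 10 of 10 had a negative log2 fold change in each genotype. When the 4 libraries were left out, 10 of 10 were lower in wildtype mice (median log2 fold change -1.84), against 4.4% of all genes, and 10 of 10 in knockout mice (median -1.84), against 7.5%. Of the regulators and disposal genes, 3 each were then higher in wildtype mice, against 4.26% of all genes. The counts were the same in knockout mice, where 1498 of all 15461 genes were called higher. In each genotype 2 regulators were lower. Of 12 clock genes 0 passed in the averaged comparison in either fit.

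Some markers of other cell types also passed the diet test in the averaged comparison. Of all genes tested, 7.84% were called higher and 6.77% lower, or 16% and 13.9% without the 4 libraries. No tested gene of the neutrophil, lymphocyte, bile duct or exocrine pancreas lists passed in either fit. Of 5 erythroid genes 4 were higher in both fits, and of the 4 fat cell genes the 1 that could be tested, Cfd, was higher (log2 fold change 3.37, adjusted p = 0.0212, or 5.83 without the 4 libraries). With all libraries 1 of 6 Kupffer cell genes (Cd5l, 0.73) and 1 of 6 stellate genes (Lrat, 0.59) were higher, and 1 of 6 endothelial genes (Clec4g, -0.36) was lower. In the fit without the 4 libraries the Kupffer cell count was again 1 higher, 2 stellate genes (Lrat and Reln) were higher, 2 endothelial genes (Clec4g and Gpr182) were lower, and 1 of 6 genes of recruited macrophages and monocytes (Trem2, 1.39) was higher. The summed erythroid level ran from 78.8 to 117 CPM on chow and from 95.8 to 250.0 CPM on Western diet, and the summed fat cell level from 0.308 to 31.2 and from 0.125 to 160 CPM. Summed levels on chow and on Western diet ran from 116 to 232 and from 79.5 to 460.2 CPM for the Kupffer cell list, from 222 to 341 and from 177 to 678 CPM for the stellate list, and from 205 to 309 and from 141 to 351 CPM for the endothelial list. For recruited macrophages and monocytes they ran from 23.8 to 45.0 and from 15.6 to 86.8 CPM. No gene of these lists was at 0 in every library, and their part in the differences of the sterol enzymes was not tested.

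Levels were also compared between the enzymes, as CPM per kilobase of merged exon length without the 4 libraries. Sc5d had the highest median level in each of the 4 groups, at 122 CPM per kilobase in wildtype chow, 135 in knockout chow, 81.2 in wildtype Western diet and 76.1 in knockout Western diet livers. Tm7sf2 was the second in each group, at 58.2 and 58.3 CPM per kilobase on chow and 19.4 and 16.7 on Western diet. The lowest place changed with the diet. On chow it was held by Lss, at 7.74 CPM per kilobase in wildtype and 7.51 in knockout livers, with Hsd17b7 the next lowest at 12.5 and 11.9. On Western diet Sqle was the lowest, at 0.697 CPM per kilobase in wildtype and 0.505 in knockout livers, where Lss was at 2.83 and 2.96. On Western diet the ranges of Dhcr7, Cyp51, Nsdhl, Msmo1 and Hsd17b7, which filled the next 5 places, overlapped from one to the next in both genotypes. On chow the ranges of Tm7sf2 and Cyp51 overlapped in wildtype livers (41.3 to 60.3 and 48.4 to 53.6 CPM per kilobase) and were apart by little in knockout livers (41.6 to 58.6 and 39.2 to 41.4). These levels depend on the exon models of GENCODE M21 for GRCm38, since the counts were made on GRCm39.

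The 28 Western diet livers that stood with their diet still differed from each other. Sqle spread most, 10.7-fold from 1.42 CPM in knockout C to 15.3 CPM in wildtype C, and the other 8 members spread between 2.43-fold for Hsd17b7 and 4.90-fold for Dhcr7. In each of these Western diet livers Sqle rested on 18 to 251 counts. Wildtype Western diet C was the highest of the 28 for 8 of 9 members and the second for Tm7sf2, whose highest liver was wildtype O at 144 CPM. In liver C, Cyp51 was at 78.6, Nsdhl at 56.3 and Dhcr7 at 118 CPM, and its library total of 17283660 counts lay within the range of the group. Knockout L, knockout I and wildtype K were among the 5 highest libraries for 7 of 9 members each, and knockout G was among the 5 lowest for 6 of 9.

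**Figure D4:**
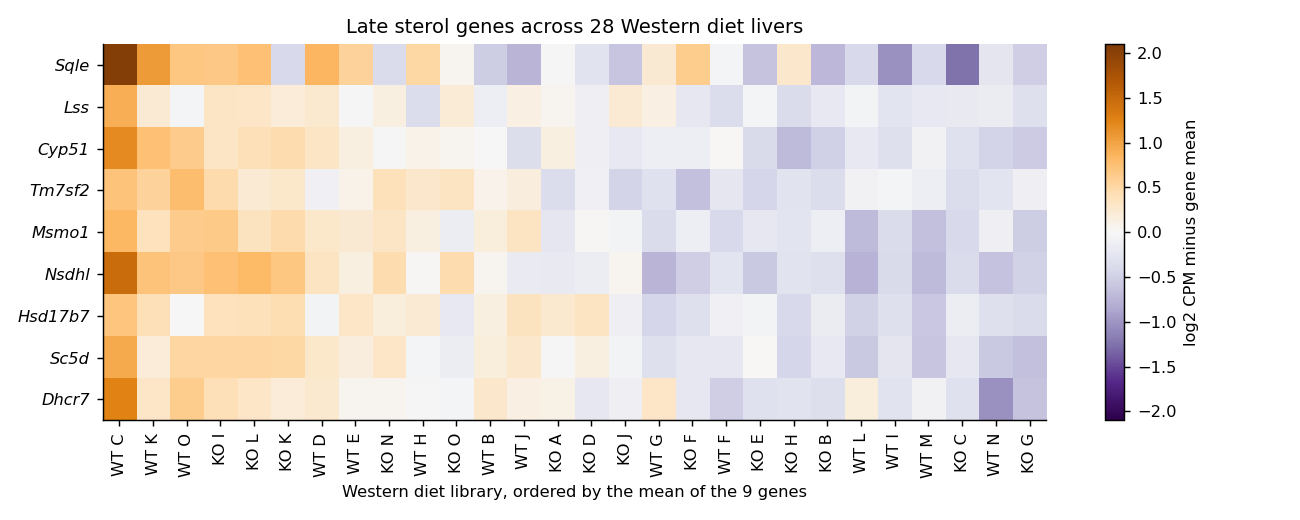
Rows are the 9 members and columns the 28 Western diet livers that stood with their diet, ordered by the mean of the members. Colour is log2 CPM minus the gene's mean over the 28 livers of both genotypes, from -2.1 to 2.1. Rows tend to share their high and low livers, and the values run from -1.26 to 2.05.

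Levels of the enzymes went together across these livers, with each genotype centred on its own mean. Over the 36 pairs of members, Pearson's r lay between 0.464 and 0.926 (median 0.739, n = 28 livers) and Spearman's rho between 0.385 and 0.933 (median 0.674). After adjustment over the 36 pairs, the largest permutation p was 0.0187 for r and 0.0463 for rho, with 100000 resamples, 2-sided. The closest pair was Msmo1 with Sc5d (r 0.926), members with a large and a small diet difference. Sqle had the loosest ties, with a median r of 0.590 with the other 8, and its lowest r was with Hsd17b7. When the 2 livers farthest from the median of the first gene were left out of each pair, r lay between 0.260 and 0.906 (median 0.618). The lowest 4 values were of Sqle with Hsd17b7, Lss, Tm7sf2 and Sc5d (0.260 to 0.350), pairs that rest in part on those livers. All members were read in the same libraries and scaled by the same totals, which these correlations share.

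The genes whose pattern over the 28 livers was most like the members' mean were searched among 11822 genes. Rdh11, a retinal reductase, was the first (r 0.961), followed by Acss2, which makes acetyl-CoA from acetate (r 0.939), and Acat2, the first enzyme of the mevalonate pathway (r 0.920). Among the next 5 were Acacb, an acetyl-CoA carboxylase (r 0.888), Cyb5r3, a cytochrome b5 reductase (r 0.883), Dlat, a subunit of pyruvate dehydrogenase (r 0.881), and Slc25a1, the mitochondrial citrate carrier (r 0.880). Only some of these 8 differed by diet: Rdh11 (log2 fold change -1.25, adjusted p = 0.00436) and Acat2 (-0.54, adjusted p = 0.0403) passed, whereas Acacb (0.27), Cyb5r3 (0.10) and Dlat (0.07) had small positive values that did not pass, and neither did Acss2 (-0.68) or Slc25a1 (-0.09). Acss2 passed as well without the 4 libraries (-0.95, adjusted p = 0.0167), and Rdh11 was at -1.68. Srebf2 stood at place 550 (r 0.512) and Insig1 at 34 (r 0.777).

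The second comparison asks how the enzymes fared in livers lacking CD163. On Western diet 0 of 9 members passed between knockout and wildtype livers, and 0 of 9 had an unadjusted p under 0.05, where 0.00654% of all genes, Cd163 alone, were called. DESeq2 also called 0 of 9, with 0.0196% of all genes. Log2 fold changes of knockout against wildtype lay between -0.23 for Dhcr7 (95% interval -0.69 to 0.23) and 0.03 for Msmo1 (-0.79 to 0.84), with adjusted p between 0.960 and 0.999. The interval was the widest for Sqle, at -1.47 to 1.17, and the narrowest for Sc5d, at -0.30 to 0.29. Without the 4 libraries 0 of 9 passed, with 0.00647% of all genes called, and Sqle was at -0.47 (95% interval -1.02 to 0.07, adjusted p = 0.835), with medians of 2.80 CPM in knockout and 3.87 CPM in wildtype livers. The other 8 then lay between -0.27 for Dhcr7 (-0.56 to 0.03) and 0.01 for Hsd17b7 (-0.23 to 0.25).

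**Figure D5:**
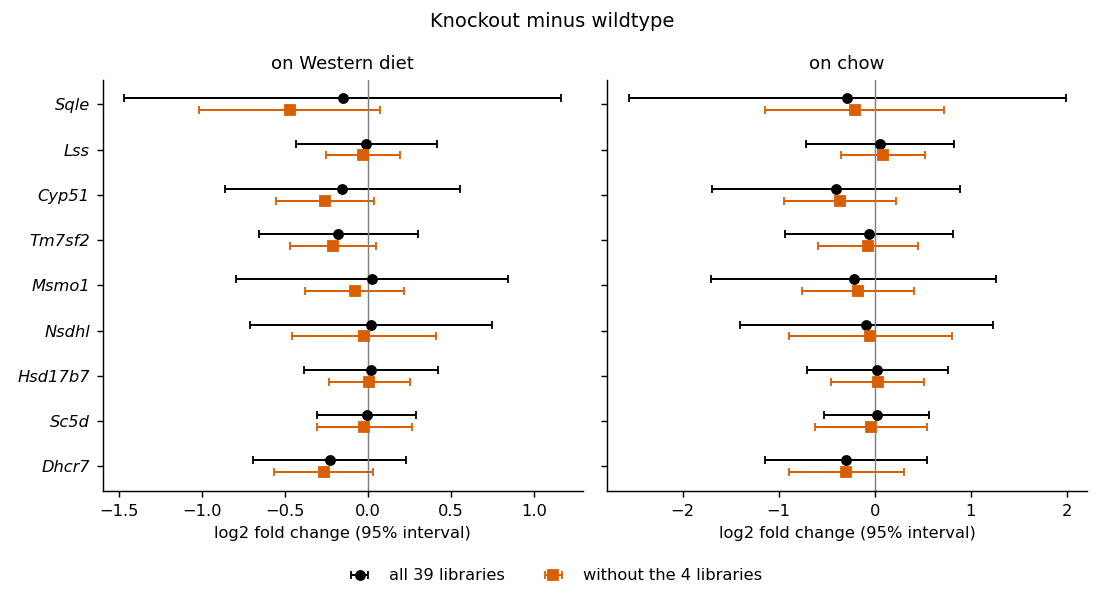
Log2 fold change of knockout against wildtype for the 9 members, with 95% intervals, on Western diet and on chow, from all 39 libraries and without the 4. Every interval includes 0, and the widest is that of Sqle on chow, from -2.56 to 1.99.

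On chow 0 of 9 members passed between 4 knockout and 5 wildtype livers (adjusted p = 1.00 for each, with 0.00654% of all genes called), and 0 of 9 had an unadjusted p under 0.05. DESeq2 called 0 of 9 as well, with 0.0131% of all genes. Log2 fold changes lay between -0.40 for Cyp51 (95% interval -1.69 to 0.89) and 0.05 for Lss (-0.72 to 0.82). Without the 4 libraries 0 of 9 passed again (0.00647% of all genes called), and Cyp51 was the 1 member whose groups did not overlap, at 173, 181 and 183 CPM in 3 knockout and 214 to 236 CPM in 4 wildtype livers. Its log2 fold change was then -0.36 (95% interval -0.94 to 0.22, edgeR adjusted p = 0.928), and it did not pass. The share of all genes whose groups were apart between so few livers was not counted. The exons of Cyp51 share 166 bases, 3.8% of its length, with those of Akap9 on the opposite strand. Whether reads were counted by strand is not given in the sources used here, so counts of this pair are uncertain there, as are those of Tm7sf2, which shares 532 bases (12.1%) with Vps51 on its own strand, and of Lss, which shares 381 bases (3.5%) with the antisense gene 4930483K19Rik.

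The diet difference itself was compared between the genotypes by an interaction term, and 0 of 9 members passed in edgeR (adjusted p = 1.00 for each, with 0% of all genes called) and in DESeq2, and 0 of 9 had an unadjusted p under 0.05. The difference of the log2 fold changes, knockout minus wildtype, lay between -0.12 for Tm7sf2 and 0.25 for Cyp51, with SEs from 0.31 for Sc5d to 1.29 for Sqle. For Sqle the 95% interval ran from -2.49 to 2.76, and from -1.34 to 0.81 without the 4 libraries, where the difference was -0.26. For Msmo1, the interval without the 4 libraries was -0.56 to 0.75. The calls in wildtype and not in knockout mice are thus not shown to be a difference between the genotypes.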

How the data were processed

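RNA was taken from snap-frozen liver of 39 mice, and libraries made with the NEBNext Ultra kit were sequenced in pairs on a NovaSeq instrument, per the labels' protocols. The values are raw counts per gene as deposited by the authors; the submitters' processing notes name STAR 2.7.8a, featureCounts 2.0, FastQC, MultiQC and GRCm39. Neither the annotation release nor the strand setting is given in the sources used here. GENCODE M21 (GRCm38) gave symbols for 52083 of 55416 identifiers, with 99.44% of the counts, and also overlaps and exon lengths. RefSeq promoter windows carry GRCm38.p6 coordinates.

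Low genes were removed with filterByExpr (edgeR 4.0.16, grouped, count 10, total 15), leaving 15296 genes, or 15461 without the 4 libraries. After TMM scaling, a single robust quasi-likelihood fit over the 4 groups gave all contrasts (glmQLFit and glmQLFTest, R 4.3.3). SEs were derived from the F statistics, intervals are at 95%, and p-values were adjusted by Benjamini-Hochberg across all genes tested, with a threshold of 0.05. CPM are counts relative to the TMM-scaled totals, and log2 CPM uses a prior count of 2. The fit was tested on simulated data. Depth, from 8578865 counts per library, limits Sqle most, since on Western diet it has few counts. Permutation tests and correlations used scipy 1.17.1 with 100000 resamples (exact for Cd163 on chow), and figures matplotlib 3.10.9.

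The 9 members, the pathway and marker lists and the tests were chosen with earlier results of these data known. Named genes are the 9 members, up to 4 genes per pathway list that passed by smallest p in each diet comparison, Srebf2 and Insig1, and the 8 genes of most like pattern; Mbtps1, Scap, Cyp7a1, Mylip and the cell type markers were named after their values were seen. Values of some genes that the rule names are not reported here. The replicate letters do not pair the mice by the labels, and no block was used in the reported fit. Alternatives tried were DESeq2 1.42.0, RLE size factors, the library number as a covariate, a block for the replicate letter, no filter on low counts, fits of only the groups compared, the 4 libraries left out, wildtype Western diet L and M summed, and each library left out in turn. The values given first rest on all 39 libraries under their labels.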

Additional observations from a re-analysis of the deposited data

Results flagged for a closer look

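By Dixon's rule on log2 CPM, 18 chow groups of 4 or 5 livers were searched, 1 per member and genotype. In 10 a liver lay far from the others, where the rule flags about 1 in 20 single groups by chance. The members were read in the same livers, so the 18 groups are not separate trials. In each of the 10 the flagged liver was the lowest, and it was 1 of the 2 chow libraries that stood with the Western diet. Those 2 had been set apart before, so the flags are no separate evidence. The gap to the nearest other liver, as a share of the group's range, was 0.925 for Sqle, 0.779 for Lss, 0.940 for Cyp51, 0.722 for Tm7sf2, 0.865 for Msmo1, 0.752 for Nsdhl, 0.856 for Hsd17b7 and 0.782 for Dhcr7 in wildtype chow A. In that liver Sqle was at 3.07 log2 CPM, against 6.40 to 6.67 in the other 4. In knockout chow D the gap was 0.833 for Sqle and 0.965 for Cyp51, with Cyp51 at 5.23 log2 CPM against 7.43 to 7.51 in the other 3. Sc5d was the member with no such liver in either group.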

How the results depend on the processing

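The count of members lower in the averaged diet comparison was 7 to 9 under every alternative. It was 8 without a filter on low counts or with the library number as a covariate, and Sc5d was the member lost in both. With the replicate block, 7 of 9 members passed, Hsd17b7 (adjusted p = 0.0760) and Sc5d (adjusted p = 0.270) being lost. The letters do not pair the mice: same-letter livers of the 2 genotypes on Western diet correlated at -0.0104 on average, and 2 of 15 correlated best with their own letter. Leaving out 1 library gave 8 or 9, and Sc5d was lost without knockout chow A or B or wildtype chow B, C or D (adjusted p 0.0523 to 0.119). In wildtype mice the count of 3 became 7 with DESeq2, 4 with RLE size factors, 2 with only the groups compared, 0 without a filter, with the replicate block or with the library number, 1 with Western diet L and M summed, and 9 without the 4 libraries. Leaving out 1 library gave 0 to 8: 8 without wildtype chow A or Western diet A, 7 without knockout Western diet M, 6 without knockout chow D, and 0 without wildtype chow B, C, D or E. In knockout mice the count of 0 became 2 with DESeq2 and 8 without the 4 libraries, and leaving out 1 library gave 0 to 8, with 8 without knockout chow D or Western diet M. Without the 4 libraries, the share of all genes called lower also rose, from 0.615% to 4.4% in wildtype and from 0.00654% to 7.5% in knockout mice. With DESeq2 it was 0.683% in knockout mice. For the other diet counts of DESeq2 and for the remaining alternatives that share was not counted. Apart from the 4 libraries, whose choice widens the diet difference, and from the smaller groups left by taking 1 out, the cause of these changes was not tested. No diet value of a member turned its sign.

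The genotype and interaction values of the members, 0 of which passed under any alternative, are log2 fold changes that turned sign in places. For knockout against wildtype on Western diet the sign turned with the replicate block for Msmo1 (-0.16), Nsdhl (-0.046) and Hsd17b7 (-0.0014), with the library number as a covariate for Msmo1 (-0.29), Nsdhl (-0.16) and Hsd17b7 (-0.19), without the 4 libraries for Msmo1 (-0.078) and Nsdhl (-0.022), with wildtype Western diet L and M summed for Msmo1 (-0.030), Nsdhl (-0.036) and Hsd17b7 (-0.018). On chow it turned with the replicate block for Lss (-0.10) and Hsd17b7 (-0.072), with the library number as a covariate for Lss (-0.11), Hsd17b7 (-0.20) and Sc5d (-0.019), without the 4 libraries for Sc5d (-0.038). In the interaction it turned with the replicate block for Lss (0.062), Tm7sf2 (0.020) and Hsd17b7 (0.070), with the library number as a covariate for Hsd17b7 (0.011), without the 4 libraries for Sqle (-0.26) and Sc5d (0.016), with DESeq2 for Cyp51 (-0.15) and Hsd17b7 (0.0094), with RLE size factors for Hsd17b7 (0.010), without a filter on low counts for Hsd17b7 (0.0094). With 1 library left out, on Western diet Sqle ran from -1.55 to 0.92, Lss from -0.20 to 0.17, Cyp51 from -0.63 to 0.22, Tm7sf2 from -0.40 to 0.019, Msmo1 from -0.58 to 0.53, Nsdhl from -0.39 to 0.39, Hsd17b7 from -0.15 to 0.18 and Sc5d from -0.069 to 0.077. On chow Sqle ran from -0.74 to 0.089, Lss from -0.29 to 0.28, Tm7sf2 from -0.28 to 0.16, Msmo1 from -0.65 to 0.10, Nsdhl from -0.50 to 0.19, Hsd17b7 from -0.22 to 0.22 and Sc5d from -0.12 to 0.12. In the interaction Sqle ran from -1.26 to 1.21, Lss from -0.29 to 0.28, Cyp51 from -0.22 to 0.62, Tm7sf2 from -0.34 to 0.11, Msmo1 from -0.36 to 0.75, Nsdhl from -0.31 to 0.52, Hsd17b7 from -0.21 to 0.24, Sc5d from -0.13 to 0.11 and Dhcr7 from -0.15 to 0.30. The cause was not tested.

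Livers L and M of wildtype mice on Western diet were nearer to each other (chi-square per gene 3.77) than any other pair (9.63 or more), and stayed 2 mice. Sqle, at 18 to 251 counts per Western diet library without the 2 odd ones, is the member that depth limits most.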
